A study of Homo sapiens with 7 samples.

Results

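Described here are 1040 regions of chromatin that were more accessible after knockdown of PHF19 in Kasumi-1 cells and that lie in an intron other than the first of their annotated transcript. They were selected on the authors' group means and annotation in the deposited lists of changed regions, by 3 criteria, namely a knockdown mean above the control mean, an annotation to an intron numbered 2 or higher, and a position off chromosome 7. They make up 1040 of the 8815 regions listed (11.8%) and 13.7% of the 7573 gained regions off chromosome 7 (exact Clopper-Pearson 95% interval 13.0 to 14.5%, counting error only). Kasumi-1 is an established line of acute myeloid leukaemia cells that carries the RUNX1-RUNX1T1 fusion gene. The knockdown group has 3 libraries of cells given a PHF19 shRNA, and the control group has 4 libraries of cells given a scrambled shRNA, whose treatment label reads WT. Both groups were selected with puromycin at 2 µg/ml from 48 hours after the shRNA for at least 24 hours, and each library was made from 10000 cells and sequenced as paired 150 nt reads. Separate cultures are not stated for the libraries within a group, and the FDR values then reflect a spread among libraries that may be technical only.

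ATAC-seq reads come from DNA that a transposase can reach, and accessible DNA within introns often belongs to enhancers, to alternative promoters or to sites bound by structural proteins. An enhancer in an intron can act on the gene that holds it or on another gene at a distance. PHF19 is a Polycomb-like protein that binds PRC2, the complex that methylates histone H3 on lysine 27, and chromatin carrying that mark is generally compact.

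Some intronic regions lie nearest to the start of a microRNA gene, the source of a short RNA that represses messenger RNAs through its seed. For 45 of the 1040 regions the nearest start belonged to a microRNA gene other than the host, from 37 microRNA genes, and for 28 of the 45 the microRNA lay inside the host gene by the RefSeq annotation of GRCh38.p14. Of the 37 genes, 33 matched the RefSeq sequence table. The mature sequences of 6 of them are shown because their hosts are described further on or because the microRNA is widely studied, and capitals mark the seed, bases 2 to 8 from the 5′ end.
hsa-miR-4789-5p: gUAUACACcugauauguguaug
hsa-miR-194-5p: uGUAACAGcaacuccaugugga
hsa-miR-4714-5p: aACUCUGAccccuuagguugau
hsa-miR-125b-5p: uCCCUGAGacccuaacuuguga
hsa-miR-218-5p: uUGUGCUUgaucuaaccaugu
hsa-miR-9-5p: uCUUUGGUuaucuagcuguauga
No seed was shared among the 6 printed, so they form no seed family. In the authors' deposited table the region in an intron of NAALADL2 lay 125.9 kb from MIR4789. It had mean normalised read counts of 43.72 in knockdown cells and 8.072 in controls. The region in IARS2, 19.2 kb from MIR194-1, had 28.99 reads in knockdown cells and 5.714 in controls, a log2 fold of 1.28. The region in MIR9-2HG, the host transcript of MIR9-2, had 48.97 reads in knockdown cells and 28.24 in controls, the smallest fold of these 6 at 0.69. Between these lay the region in MIR99AHG, 6.30 kb from MIR125B2, with 8.939 reads in knockdown cells and 2.608 in controls (0.95). An intron of SLIT3, which encodes a secreted axon guidance ligand, held a region 88.4 kb from MIR218-2. That region had 10.84 reads in knockdown cells and 3.279 in controls (0.98). None of these values is a measurement of microRNA.

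Of the host genes with 4 or more gained later-intron regions, DAP, RUNX1, FNDC3B, IL1RAP and GALNTL6 also had an annotated start under a gained region, and the promoters of the last 4 are shown for that reason. Each runs from 250 bases before to 50 bases after the RefSeq start in GRCh38.p14, on the gene's strand, and capitals mark a match to the RUNX letters TGTGGT on either strand. The deposited coordinates follow another build, so whether the RefSeq start is the deposited start was not tested.
RUNX1 promoter: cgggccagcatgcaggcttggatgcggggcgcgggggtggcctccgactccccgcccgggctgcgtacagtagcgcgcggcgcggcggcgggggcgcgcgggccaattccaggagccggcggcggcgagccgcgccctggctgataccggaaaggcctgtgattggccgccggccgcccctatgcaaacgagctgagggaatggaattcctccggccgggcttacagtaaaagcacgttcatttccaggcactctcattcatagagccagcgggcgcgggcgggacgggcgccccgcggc
FNDC3B promoter: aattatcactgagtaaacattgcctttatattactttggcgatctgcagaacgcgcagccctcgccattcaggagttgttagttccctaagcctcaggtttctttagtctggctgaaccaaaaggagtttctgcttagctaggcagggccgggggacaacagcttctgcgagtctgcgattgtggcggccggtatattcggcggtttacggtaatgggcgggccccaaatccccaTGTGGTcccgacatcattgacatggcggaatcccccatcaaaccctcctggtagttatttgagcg
IL1RAP promoter: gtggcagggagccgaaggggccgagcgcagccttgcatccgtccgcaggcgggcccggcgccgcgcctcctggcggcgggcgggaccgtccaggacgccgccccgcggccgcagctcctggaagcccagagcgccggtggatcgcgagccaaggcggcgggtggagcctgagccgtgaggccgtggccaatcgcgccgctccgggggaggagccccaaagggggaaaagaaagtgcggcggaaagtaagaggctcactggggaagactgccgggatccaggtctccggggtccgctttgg
GALNTL6 promoter: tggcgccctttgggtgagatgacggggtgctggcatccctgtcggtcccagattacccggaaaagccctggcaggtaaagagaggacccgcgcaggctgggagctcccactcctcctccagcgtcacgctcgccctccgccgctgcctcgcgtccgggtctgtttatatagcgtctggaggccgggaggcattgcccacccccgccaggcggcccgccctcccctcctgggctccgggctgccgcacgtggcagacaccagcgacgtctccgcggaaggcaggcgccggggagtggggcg
Of the 4 promoters, FNDC3B held a match, 15 bases before the start. Over all protein-coding hosts with a promoter in the table, 47 of 583 (8.06%) held these letters on either strand, against 1647 of 15044 protein-coding genes in all (10.9%). The AP-1 letters TGANTCA were in 5.66% of host promoters and 5.72% of all, and the GATA letters AGATAA in 7.72% of host promoters and 7.64% of all. The 3 motifs were counted separately, so a promoter can hold several and matches may overlap. The median GC content was 63.7% in host promoters and 62.7% in all. The bases of the intronic regions themselves were not used here.

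Every mean, fold and false discovery rate (FDR) of a region given here is the authors' own, from the authors' deposited table, with no value per library, no SD and no n. Read counts are the authors' group means of normalised reads, turned from log2 to a linear scale, and a fold is log2 of knockdown over control as the authors shrank it. Coordinates are as deposited, 1-based, and read as hg19. The depth of each library is unknown here, and so are regions that did not pass the authors' threshold.

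The gain itself fixed the choice of these regions, so their folds are a description. The authors' FDR of 0.05 was passed in the gained direction by 16.4% of the 52675 regions tested and in the lost direction by 0.38%. The number tested is not stated by the authors and was inferred from the FDR and p-values, so all shares of tested regions rest on that inference. The median log2 fold of the 1040 regions was 1.02, with an interquartile range of 0.94 to 1.17 and a full range of 0.64 to 2.05. The median region had 16.1 reads in knockdown cells and 5.27 in controls. In bulk libraries, more cells with a region open and more reads per open cell cannot be told apart. A control mean at the floor of 1 read was present in 22 of the 1040 regions.

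These were regions of low coverage. Averaged over the 7 libraries, the median region of gained later introns had 9.91 reads, close to 10.3 reads in the 470 gained first-intron regions and 10.5 in the 2020 gained intergenic regions, whereas the 3850 gained promoter regions had 34.0. It was under 10 reads in 527 later-intron regions (50.7%), against 48.5% of first-intron, 47.2% of intergenic and 5.58% of promoter regions. The median log2 fold was 1.02 in later introns, 1.01 in first introns, 1.02 in intergenic regions and 0.88 at promoters. At an FDR of 0.01 or less were 351 later-intron regions (33.8%), against 35.1% of first-intron, 38.0% of intergenic and 52.6% of promoter regions. Of all tested regions, 7.5% passed that limit in the gained direction. A log2 fold of at least 1 was reached by 586 later-intron regions (56.3%), 53.6% of first-intron, 55.5% of intergenic and 28.2% of promoter regions, and by 7.09% of all tested regions. On these measures later introns sat beside first introns and intergenic regions and apart from promoters, a comparison that was not tested because regions are not replicates.

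The size of the fold depended little on coverage, while the unshrunken ratio of means depended on it strongly. In the 260 regions with the fewest reads, 1.78 to 6.81 over all libraries, the median log2 fold was 1.04 and the median ratio of knockdown to control means was 4.45. In the 260 with the most reads, 15.1 to 88.2, the median log2 fold was 0.95 and the median ratio 2.31. The smallest fold listed was 0.87 in the sparse set and 0.64 in the deep set. The smallest fold that entered the list was thus larger where reads were few.

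**Figure D1:**
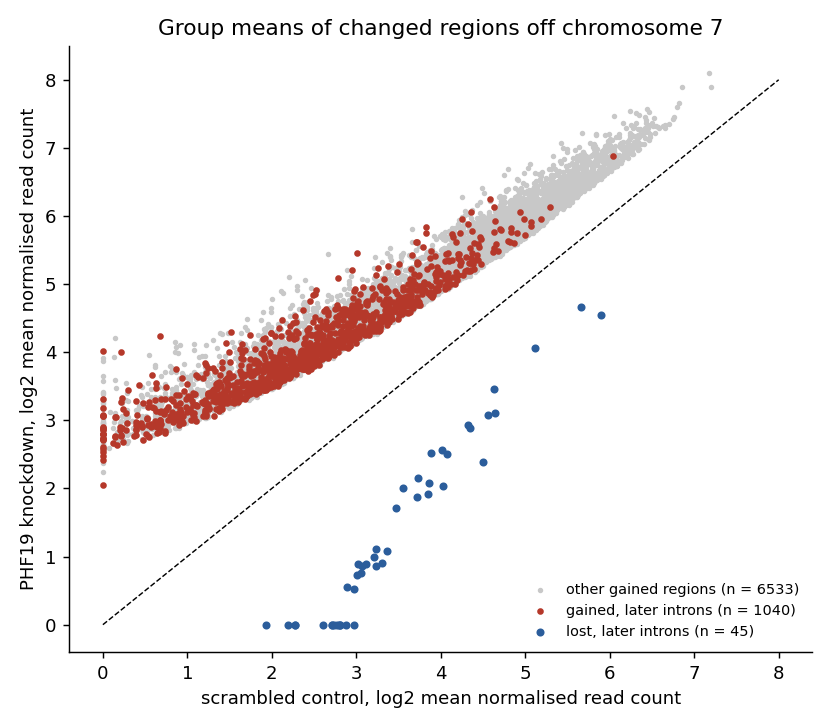
Each point is a changed region off chromosome 7, with the log2 mean normalised read count of the scrambled control on the x axis and of the PHF19 knockdown on the y axis, and the dashed line marks equal means. Gained later-intron regions (red, n = 1040) occupy the lower and middle part of the cloud of other gained regions (grey, n = 6533), and lost later-intron regions (blue, n = 45) lie under the line, 14 of them with a knockdown mean at the floor.

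The largest gain was in intron 2 of 3 of LINC01692, a long non-coding RNA gene (chr21:26377682-26378082), with 18.86 reads in knockdown cells and 1.599 in controls, a log2 fold of 2.05 and an FDR of 4e-05 in the authors' deposited table. The region with the smallest FDR of all 1040, 3.29e-08, lay in intron 9 of 13 of NAALADL2, which encodes a protein related to a glutamate-releasing peptidase (chr3:175213220-175213620), with 43.72 reads in knockdown cells and 8.072 in controls and a log2 fold of 2.04. Intron 8 of 11 of GRM7, a metabotropic glutamate receptor, held the next largest gain, 1.97, on 16.06 reads in knockdown cells and 1.16 in controls. Of these 3, the NAALADL2 region had reads enough in both groups to give a control mean well above the floor.

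OSTN, which encodes the secreted peptide osteocrin, had 37.11 reads in knockdown cells and 7.75 in controls in its intron 2 of 2 (log2 fold 1.85). DNER, a transmembrane protein with EGF repeats that can act on Notch, had 34.22 reads in knockdown cells and 6.888 in controls (1.82). FMN2, an actin-nucleating formin, had 28.64 reads in knockdown cells and 5.623 in controls (1.81). These genes are known mostly from muscle, bone or nerve cells rather than from blood. CPA6, a secreted carboxypeptidase, followed with 1.81, DLG2, a synaptic scaffold, with 1.73, and KCNAB1, a potassium channel subunit, and IL1RAP, the co-receptor for interleukin 1, with 1.69 each. A region in NBPF20 also reached 1.73, but NBPF genes are near-identical copies and its reads are of uncertain origin.

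Some regions combined a small FDR with more reads. SCML4, a relative of Polycomb group proteins, had 66.38 reads in knockdown cells and 20.51 in controls in intron 2 of 3, a log2 fold of 1.49 with an FDR of 5.5e-07 in the authors' deposited table. STARD13, a protein with a lipid-binding START domain, had 76.02 reads in knockdown cells and 24.03 in controls in intron 3 of 17 (1.42). The long non-coding gene BALR6 had 62.17 reads in knockdown cells and 19.0 in controls in its last intron, 216.0 kb from the start of SATB1, a chromatin organiser of lymphoid cells (1.49). The deepest region of all lay in CTNND2, which encodes delta-catenin, with 117.9 reads in knockdown cells and 65.91 in controls, and it had a fold of 0.76. MIDN, whose product delivers nuclear proteins to the proteasome, and INSR, the insulin receptor, were likewise deep with folds of 0.74 and 0.75, and AKNA, an AT-hook protein, was deep with 0.99.

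At the edge of the list the folds were smallest in deep regions. WDR70, a WD-repeat protein, had 52.5 reads in knockdown cells and 31.98 in controls (log2 fold 0.64), and TNKS1BP1, a partner of tankyrase, had 48.64 reads in knockdown cells and 29.2 in controls (0.65). The largest FDR, 0.0499, was that of regions in TENM1, a teneurin, and in MAOB, monoamine oxidase B. On the other side of no change, the lost later-intron regions nearest to it were in UBAC1, with 1.0 read in knockdown cells and 4.84 in controls (−0.78), and in PARN, a poly(A) ribonuclease (−0.79).

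Later introns begin with intron 2, and that intron held the most gained regions. It had 298 of the 1040 (28.7%, exact 95% interval 25.9 to 31.5%, counting error only), while an equal spread of each region over the later introns of its own transcript would put 174.6 there (16.8%). Such a spread takes no account of intron length, and intron lengths were not used here. Intron 3 had 165 regions (15.9%), intron 4 116 (11.2%), introns 6 to 10 204 (19.6%) and introns beyond the tenth 191 (18.4%). The last intron of the transcript held 143 (13.8%). The median fold was nearly the same along the gene, from 1.0 in intron 4 to 1.07 in intron 5. Among the 45 lost later-intron regions, intron 2 held 10 (22.2%, interval 11.2 to 37.1%), an interval that overlaps the one for gained regions.

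The regions lay far from transcription starts. The median distance to the nearest start was 42.4 kb for gained later introns, with an interquartile range of 18.3 to 97.5 kb and a maximum of 1080 kb, against 20.8 kb for gained first introns and 82.0 kb for gained intergenic regions. Within 10 kb of a start lay 140 later-intron regions (13.5%), against 26.2% of first-intron regions, and beyond 100 kb lay 248 (23.8%), against 10.0% of first-intron and 45.4% of intergenic regions. The deposited annotation calls a region within 3 kb of a start a promoter, so none of the 1040 can lie nearer. Lost later-intron regions had a median distance of 17.9 kb, and 3 of 45 (6.67%) lay beyond 100 kb. Nearly all gained later-intron regions were narrow, with a width of 401 bp in 992 (95.4%) and a maximum of 1034 bp.

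**Figure D2:**
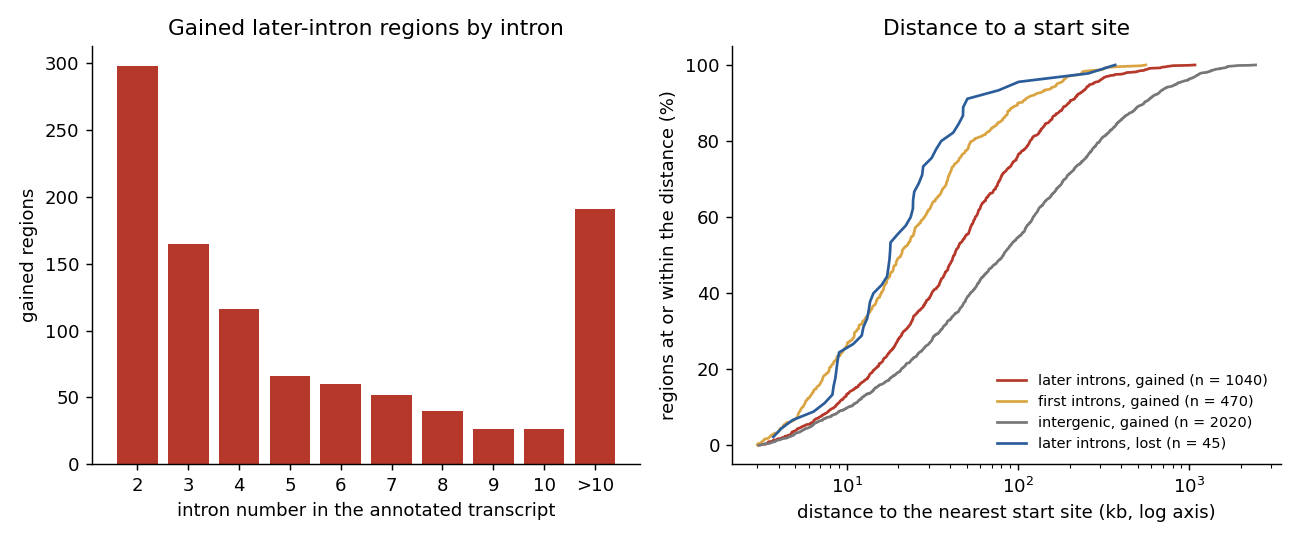
Left, the number of gained later-intron regions (y axis) by intron number in the annotated transcript (x axis), with 298 in intron 2 and 191 beyond intron 10. Right, the cumulative percent of regions (y axis) at or within a distance in kb from the nearest start site (x axis, log scale), where the curve of gained later introns (median 42.4 kb) runs between those of gained first introns (20.8 kb) and gained intergenic regions (82.0 kb), and the lost later introns (17.9 kb) lie near the first introns.

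The host gene was known for 1004 of the 1040 regions (96.5%), in 767 genes, and the other 36 lay in transcripts without a gene name. Protein-coding genes held 935 regions, long non-coding RNA genes 60 and pseudogenes 9. The nearest start belonged to the host in 734 regions (70.6%), against 83.0% of gained first-intron regions and 64.4% of lost later-intron regions. In the remaining 306 the nearest start did not carry the identifier of the host. It belonged to a protein-coding gene in 176, a long non-coding RNA gene in 73 and a microRNA gene in 45. The 306 include regions in transcripts without a gene name, for which a host different from the nearest gene was not established. For the 734, the transcript of the host gene with the nearest start spanned a median of 97.1 kb. That transcript need not be the one that holds the region. Measured the same way, the median was 124.0 kb for gained first introns and 32.3 kb for lost later introns. Counts per gene are not corrected for length. The median fold did not follow the span, being 1.0 in the 184 regions of the shortest transcripts and 1.02 in the 183 of the longest.

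Most host genes held 1 gained later-intron region, while 162 hosts with 2 or more held 399 of the 1004 regions with a named host. Of the 767 hosts, 605 had 1 region, 120 had 2, 26 had 3 and 16 had 4 or more, and these 16 held 81 regions. Another gained region lay within 10 kb of 157 of the 1040 (15.1%), against 17.9% of first-intron and 10.9% of intergenic regions. No lost region lay within 10 kb of any of the 1040. Off chromosome 7, 197 lost regions were listed beside 7573 gained ones, so no separation of the directions can be read from this. A gained promoter region was listed for 222 hosts (28.9%), which is 6.54% of the 3394 genes with one. A gained first-intron region was listed for 80 hosts (10.4%), which is 22.5% of the 355 genes with one. Over all protein-coding genes 3.72% hosted a gained later-intron region, and the part of gene length in this overlap was not tested. Among protein-coding genes, 211 of 712 hosts (29.6%) had a gained promoter, against 3165 of all 19118 genes (16.6%), a difference that was not tested, as the length of all genes was not used here. Of the 43 genes with a lost later-intron region, 2 (4.65%) also hosted a gained one, near the 3.72% of all protein-coding genes that did.

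IGF1R, the receptor tyrosine kinase for insulin-like growth factor 1, had 8 gained regions, all in intron 2 of 10 and within 65.8 kb on chromosome 15. The deepest had 55.22 reads in knockdown cells and 26.22 in controls (log2 fold 0.92 in the authors' deposited table), and the largest gain, 1.38, stood on 28.87 reads in knockdown cells and 8.271 in controls. The folds ran from 0.75 to 1.38. IGF1R also had a pair of gained promoter regions, the nearer 934 bp before the start, with 46.11 reads in knockdown cells and 10.53 in controls, a larger fold (1.78) than any of its intronic regions.

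RUNX1, the haematopoietic transcription factor whose first exons are joined to RUNX1T1 in the fusion gene of these cells, also had 8. Reads of the fused and the intact copy are not separated in the files. The folds ran from 0.92 to 1.63 with a median of 1.18. Of the 8, 4 lay inside a transcript with a span of 261.5 kb, and the other 4 lay 53.7 to 883.3 kb beyond its start, within a longer annotated transcript of 1098 kb that passes other genes. The largest gain was among the distant ones (chr21:37304506-37304906), with 37.63 reads in knockdown cells and 9.561 in controls and an FDR of 4.77e-06. Within the shorter transcript the region at chr21:36399029-36399429 had 54.09 reads in knockdown cells and 18.73 in controls (1.31). A region over a deposited RUNX1 start had a log2 fold of 0.98, with 46.05 reads in knockdown cells and 20.43 in controls.

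FNDC3B, a membrane protein with fibronectin type III domains, had 7 regions with folds of 0.89 to 1.22, and 4 of them lay nearer to the start of GHSR, the ghrelin receptor gene. Its deepest region had 38.37 reads in knockdown cells and 14.75 in controls (1.14). GPC5, a glypican of the cell surface, had 6 regions spread over 613.4 kb with folds of 0.87 to 1.12, all but the deepest of them, with 29.08 reads in knockdown cells and 13.68 in controls, at under 15 knockdown reads. DAP, a death-associated protein, had 5, of which 3 stood next to each other in intron 3, the strongest with 49.01 reads in knockdown cells and 13.2 in controls (1.58, FDR 3.29e-06). These 3 adjoin each other, so they are not independent measurements.

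ERG, an ETS transcription factor of haematopoietic progenitors, had 5 regions with modest folds of 0.82 to 1.05, 3 in intron 11 of 11 and 2 in intron 3. The deepest had 33.71 reads in knockdown cells and 16.52 in controls (0.82). GRM7 had 5 with folds of 0.98 to 1.97, and its deepest had 49.29 reads in knockdown cells and 13.08 in controls (1.62, FDR 9.33e-07). GALNTL6, a member of the family that starts O-linked glycosylation, had 5 with folds of 0.99 to 1.68. IL1RAP had 4 regions and the highest median of these hosts, 1.5, with 30.44 reads in knockdown cells and 7.944 in controls in intron 5 of 8 (1.5, FDR 8.07e-05) and 54.35 in knockdown cells and 24.81 in controls in intron 3 (1.0). The IL1RAP promoter was deeper still, with 97.12 reads in knockdown cells and 39.68 in controls (1.17).

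The other hosts with 4 regions were of mixed function. AKAP13, an anchor for protein kinase A, had folds of 1.09 to 1.25, and DLG2 had 1.08 to 1.73. NTM, the adhesion molecule neurotrimin, had 4 regions in intron 2 of 7 with folds of 1.02 to 1.40. CTNNA2, the neuronal alpha-catenin, had 0.96 to 1.13, LPP, a LIM protein of focal adhesions, 0.98 to 1.16, and BALR6 0.93 to 1.49. MCF2L2 had 0.68 to 1.28, and 3 of its 4 regions lay nearest to the start of B3GNT5, a glycosyltransferase gene.

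**Figure D3:**
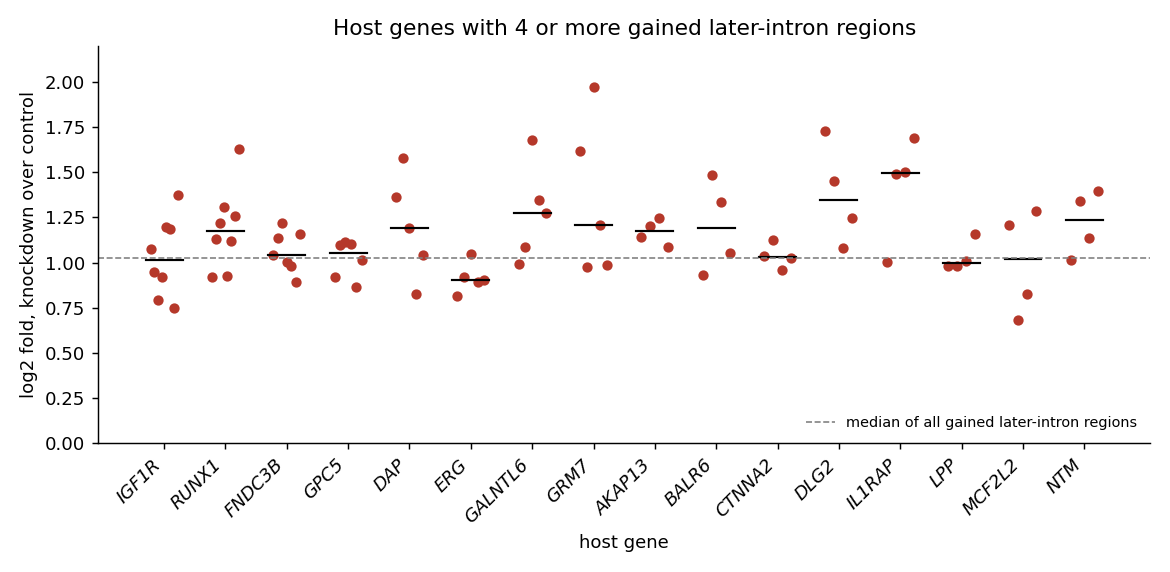
Authors' log2 fold, knockdown over control (y axis), of each gained later-intron region in the 16 host genes with 4 or more (x axis, most regions first), with black bars for the median of the gene and a dashed line for the median of all 1040 regions, 1.02. The regions of IL1RAP reach the highest median, 1.5, those of ERG lie at 0.82 to 1.05, and GRM7 spans 0.98 to 1.97.

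Chromosomes held unequal numbers. Chromosome 3 had 160 of the 1040 regions (15.4%), or 15 per 100 protein-coding genes, and chromosome 21 had 14.2 per 100, chromosome 5 11.6, chromosome 13 11.2 and chromosome 4 10.6, against 5.44 per 100 over all chromosomes other than 7. Chromosomes 16, 17, 19 and 20 had 0.585, 0.855, 0.276 and 0.931 per 100, and chromosome 22 had no region. Of the 45 lost later-intron regions, 0.235 per 100 genes over all chromosomes other than 7, 8 lay on chromosome 6, 6 each on chromosomes 17 and 19, and 2 on chromosome 22, counts too small to compare the placement of gained and lost regions. Chromosome 3 gave 18.4% of its gained regions to later introns and chromosome 19 gave 1.67%. Gene length and copy number of these chromosomes in Kasumi-1 were not measured here, and their part in the counts was not tested.

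**Figure D4:**
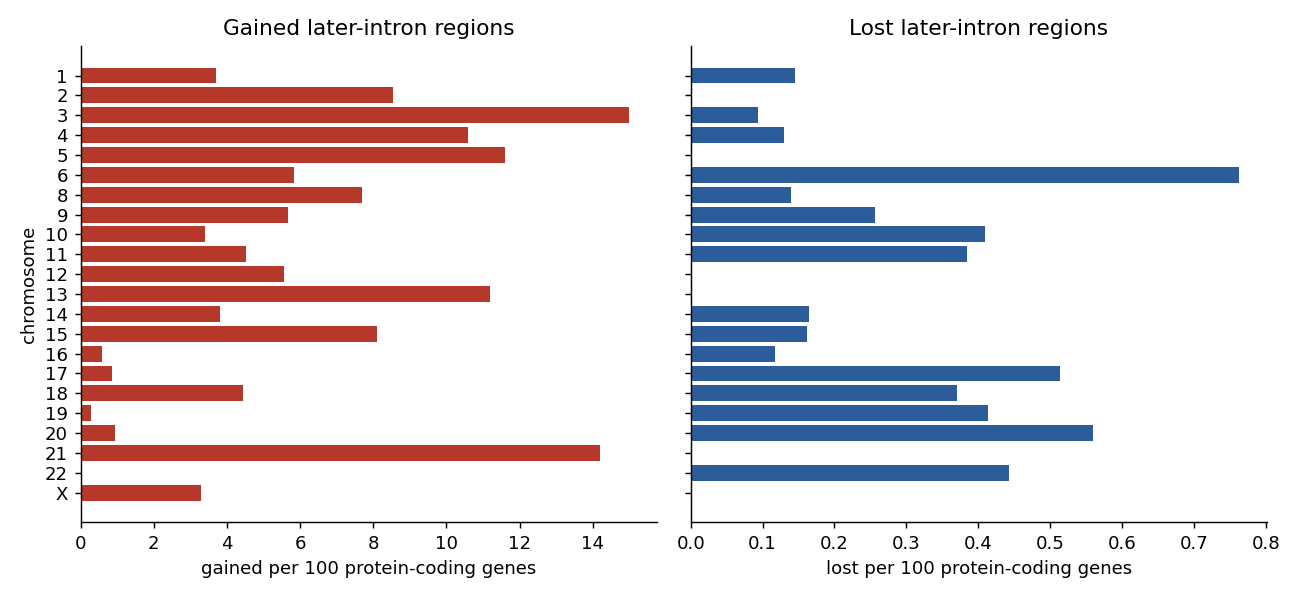
Gained (left, red) and lost (right, blue) later-intron regions per 100 protein-coding genes (x axes, of different scale) on each chromosome other than 7 (y axis). Chromosomes 3 and 21 reach 15 and 14.2 gained regions per 100 genes, chromosome 22 has none, and chromosome 6 has the most lost regions, 0.763 per 100.

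Host genes were counted in lists of known function, where 712 of 19118 protein-coding genes off chromosome 7 (3.72%) hosted a gained later-intron region, 2.26% did so with a log2 fold of at least 1, 1.41% did so with an FDR of at most 0.01, and 0.22% hosted a lost one. A gained promoter was listed for 16.6% of the same genes. The shares are descriptions without a test, the lists were drawn up with results of these data known, and 15 lists share members with another. Of 869 distinct listed genes, 124 hosted a gained region.

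Genes of neurons made up the largest shares. Among synaptic and axon adhesion genes, 32 of 63 (50.8%) hosted 45 gained regions. For 33 of the 45 the nearest start was the host's own, and the transcript from that start spanned a median of 429.3 kb. This was the longest of any list, though that transcript need not hold the region. NRXN3, a neurexin, had 19.52 reads in knockdown cells and 3.974 in controls (log2 fold 1.58), PCDH15, a protocadherin, 11.41 in knockdown cells and 1.348 in controls (1.44), and ROBO2, a receptor for SLIT ligands, 23.28 in knockdown cells and 6.335 in controls (1.33). Of neurotransmitter receptors and ion channels, 19 of 63 (30.2%) hosted 30 regions. The median span was 184.7 kb over the 21 of these regions that could be measured the same way. The hosts included RYR2, the calcium release channel of heart muscle, with 33.69 reads in knockdown cells and 10.02 in controls (1.40). Others were KCNH8, a voltage-gated potassium channel (1.31), CHRM3, a muscarinic receptor (1.29), and KCNMA1, the large-conductance potassium channel (1.25). Neither list had a host of a lost region, beside 0.22% of all protein-coding genes, and at these list lengths no difference can be read from it. A gained promoter was listed for 10 of the 63 adhesion genes and 5 of the 63 receptors and channels.

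Of 58 haematopoietic transcription factors, 13 (22.4%) hosted 24 gained regions and none hosted a lost one, beside 0.22% of all protein-coding genes. With the FDR held to 0.01 or less, 1 of the 58 remained, RUNX1, against 12 of 63 synaptic and axon adhesion genes and 8 of 63 receptors and channels. Beside the 8 regions of RUNX1 and 5 of ERG, NFIA had 8.782 reads in knockdown cells and 1.547 in controls (log2 fold 1.16), ZEB2 7.318 in knockdown cells with controls at the floor of 1.0 (1.10), and ZBTB16, the partner of RARA in a rare promyelocytic fusion, 12.42 in knockdown cells and 3.671 in controls (1.08). The regions outside RUNX1 and ERG were mostly sparse. Sparse regions also lay in RUNX1, down to 7.437 reads in knockdown cells and 1.0 in controls. In ERG they went down to 10.65 reads in knockdown cells and 3.465 in controls. BACH2, BCL11A, MEF2C, IKZF2, PAX5, FOXP1 and MYB each hosted a region with a fold between 0.88 for MYB, the regulator of progenitor growth, and 1.04 for BACH2, a repressor in lymphoid cells. Of 47 genes mutated or fused in acute myeloid leukaemia, 4 (8.51%) hosted a region, namely RUNX1, PHF6 (0.98), KMT2A (0.87) and WT1 (0.82), which had 36.29 reads in knockdown cells and 18.11 in controls. With the FDR held to 0.01 or less, RUNX1 was the 1 left of the 4. A gained promoter was listed for 22 of the 47 genes, beside 16.6% of all protein-coding genes.

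Signalling and metabolic genes had smaller shares. Of 63 protein kinases and phosphatases 8 (12.7%) hosted a gained region, with PRKCA, protein kinase C alpha, at 44.6 reads in knockdown cells and 14.8 in controls (1.33), and the tyrosine kinase PTK2B hosted a lost one (−0.93). Cyclic nucleotide and calcium signalling had 7 of 37 (18.9%), RNA-binding proteins 7 of 52 (13.5%), lipid and sterol metabolism 7 of 54 (13.0%), and leucocyte adhesion and cytoskeleton 7 of 60 (11.7%). In the list of Wnt, Notch and TGF-beta signalling 6 of 56 genes (10.7%) hosted a gained region, among them RSPO3, which amplifies Wnt signals (1.56), and TGFBR2, a TGF-beta receptor, with 16.6 reads in knockdown cells and 3.068 in controls (1.54). BMP6, a ligand of the same family, hosted a lost region (−1.04).

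In the chromatin, housekeeping and cell type lists the share of hosts ran from 0 to 4.0%, beside 3.72% of all protein-coding genes, and at these list lengths no difference can be read from it. Gained promoters are given beside their 16.6% share of all protein-coding genes. None of 14 PRC2 subunit genes hosted a gained later-intron region, while 5 had a gained promoter, and 1 of 25 PRC1 subunit genes did, PHC3, with 26.61 reads in knockdown cells and 10.02 in controls (log2 fold 1.10), and 9 had a gained promoter. Among chromatin modifiers and remodellers 2 of 70 (2.86%) hosted a region, ARID1B and KMT2A, and 34 had a gained promoter. None of 50 cytosolic ribosomal protein genes hosted one and 24 had a gained promoter, and of 33 immediate early genes DUSP5, a phosphatase of ERK, did (1.23) and 22 had a gained promoter. CSF1R, the macrophage colony-stimulating factor receptor, was the 1 host among 48 granulocyte and monocyte genes, with 17.58 reads in knockdown cells and 7.949 in controls (0.84). A gained promoter was listed for 5 of these 48 genes. PAX5, the B-lineage factor, was the 1 host among 51 lymphoid, erythroid and megakaryocyte genes (0.95), and 3 of the 51 had a gained promoter. The files list changed regions, so markers that did not change are not seen and the labelled cell type could not be checked against them.

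**Figure D5:**
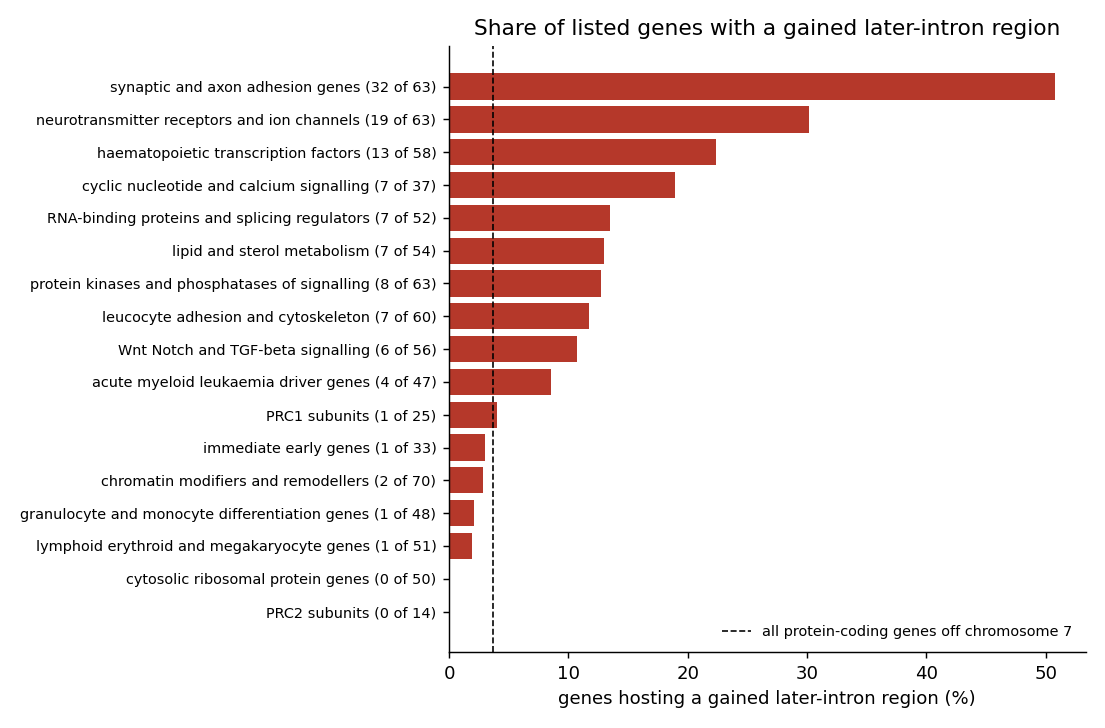
Share of the protein-coding genes of each list shown, in percent (x axis), that hosted a gained later-intron region, with the counts beside each list name (y axis) and a dashed line at the share over all protein-coding genes off chromosome 7, 3.72%. Synaptic and axon adhesion genes lie farthest right at 50.8%, and PRC2 subunits and ribosomal protein genes have no host.

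Later introns held 13.7% of gained regions off chromosome 7 (interval 13.0 to 14.5%) and 45 of the 197 lost ones (22.8%, exact 95% interval 17.2 to 29.3%), intervals that cover counting error only. Among intronic regions alone, later introns held 68.9% of the gained and 71.4% of the lost ones. The share of later introns among all tested regions is unknown, as unchanged regions are not listed. The lost regions were sparser still, with a median of 1.88 reads in knockdown cells and 9.41 in controls, and 31 of 45 (68.9%) had under 10 reads over all libraries. The largest loss was in PRDM11, of the PR-domain family, with 5.246 reads in knockdown cells and 22.67 in controls (log2 fold −1.45 in the authors' deposited table). LRRC20, a leucine-rich repeat protein, had 4.09 reads in knockdown cells and 16.3 in controls (−1.26), and CAMSAP3, which binds microtubule minus ends, had 23.48 in knockdown cells and 59.71 in controls (−1.13). In TBC1D16, a GTPase-activating protein for Rab proteins, a gained region with 32.05 reads in knockdown cells and 14.37 in controls (0.92) shared the gene with a lost region with 5.745 in knockdown cells and 14.74 in controls (−0.88). NBPF20 also had both, in the same uncertain family of copies.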

How the data were processed

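ATAC-seq libraries from Kasumi-1 cells, 3 with PHF19 knockdown and 4 scrambled controls, reach the deposited files only as lists of changed regions. Per the file headers, the authors gave log2 mean normalised read counts over all libraries and per group, a log2 fold, a p-value and an FDR for each region, with position and annotation. The signed distance to a start site in base pairs, treated as a score, was also set by the authors. Per the submitters' processing notes the tools were MACS2 2.2.6, Bowtie2 2.4.1, deepTools 1.5.12 and Picard 2.2.4, with no settings. The normalisation, the shift of reads for the transposase, and whether peaks were called per library or on pooled reads have no statement (not given in the sources used here). Depth per library is unknown, so no interval on a mean was made.

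The overall mean in the deposited lists weighted the knockdown column by 0.429, as 3 of 7 libraries would. In all 8815 regions the fold lay nearer to 0 than the group means' difference, and group means were floored at 1 read. The 52675 tested regions were inferred from FDR, rank and p-value, as the number that gave whole ranks for the largest share of lost regions. That share was 68.0%, within a tolerance of 0.01. The processing notes name hg38, but positions are those of hg19 and are printed as deposited. RefSeq tables of GRCh38.p14 gave gene names, types and sequences, and host identifiers matched for 1004 regions (96.5%).

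Counts, medians and shares were computed with matplotlib 3.10.9, numpy 2.4.6, pandas 2.3.3 and scipy 1.17.1 under Python 3.11.15, and the classification was tested on simulated annotations. No test between groups was run, since the lists hold no value per library. The regions and gene lists were chosen with earlier results of these data known, and 24 list entries were left out, 23 of them on chromosome 7. Results for some genes and for 1 of the 18 lists are not reported here. Named were the 12 largest folds, the 8 smallest FDR, the 6 highest means, the hosts with most regions (the 10 asked for, with ties), the 3 smallest folds, the 3 largest FDR, the 8 largest losses, hosts with both directions and up to 5 genes per list by fold. Other genes were named after their values were seen. Alternatives were stricter FDR, fold or read limits, chromosome 7 kept in, floored means left out, protein-coding hosts, 1 region per host, regions merged within 1 kb, the nearest gene in place of the host, and the unshrunken difference.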

Additional observations from a re-analysis of the deposited data

How the results depend on the processing

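Of 84 alternative values over 11 results, 61 stayed within the interval or within 1.5 times of the value reported, and 23 moved. The values for median width, counted among the 61, could not move, as 95.4% of the regions were 401 bp wide. A change of direction was not assessed, since the regions were chosen by their direction. With an FDR of at most 0.01 there were 351 gained and 5 lost later-intron regions, 290 host genes and 49 listed genes with a region, a median log2 fold of 1.23 and a median mean of 13.4 reads. Where the absolute fold had to reach 1 (log2) there were 586 gained and 15 lost regions, 464 hosts and 72 listed genes, a median fold of 1.14 and a median mean of 8.96 reads. With a mean of at least 10 reads there were 513 gained and 14 lost regions and 409 hosts, with a median fold of 0.99, a median mean of 15.3 reads and a median distance of 38.5 kb. The counts fall by construction, since fewer regions pass, and the cause of the moves in medians was not tested. Keeping 1 region per host gave a median fold of 1.05 and a distance of 39.1 kb, and protein-coding hosts alone raised the share nearest to their own start to 74.2%. The unshrunken difference of group means had a median of 1.62. With chromosome 7 kept in, chromosome 3 held 12.9% of the regions, since the total grows; the alternatives for chromosomes were chosen after seeing the data. Of 54 values for single lists, 27 moved by more than 1.5 times. At an FDR of at most 0.01, haematopoietic transcription factors moved to 1 gene, against 13 reported, and with the nearest gene in place of the host immediate early genes moved to 2 and ribosomal protein genes to 1. No paired analysis was possible because the lists hold group means only, and leaving out each replicate in turn was not possible for the same reason. Coverage is a limit, as 527 of 1040 regions rest on a mean of under 10 reads.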

Other observations

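Outside the regions described above, the excluded chromosome 7 held 201 gained and 1 lost later-intron region. Hosts of gained regions also carried gained regions of other classes in the authors' deposited table. DLG2 had 5 gained first-intron regions, and the largest of these had 22.02 reads in knockdown cells and 5.485 in controls (log2 fold 1.44). AKAP13 had a gained first-intron region with 20.27 reads in knockdown cells and 4.314 in controls (1.59). FNDC3B had a gained intergenic region 63.8 kb before its start with 36.79 reads in knockdown cells and 7.436 in controls (1.80), larger than any of its intronic gains.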
